A study of Mus musculus with 46 samples.

Results

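The comparison described here set 3 RNA-seq libraries of mouse thyroid tumour cells with Max restored against 3 libraries of the same cells with a control vector. All 6 libraries came from 1 cultured line grown from a mouse thyroid tumour whose cells carry mutations of Rb, p53 and Max, called the RPM genotype here. The mutations were recombined with tamoxifen through a Cre that acts in neuroendocrine cells. One set was transduced with an empty vector and the other with a vector that expresses Max, and both sets share the 3 mutations and the same serum-containing medium. These libraries are 6 of the 46 samples of the series, and every one of the 14056 genes listed for them was used. Levels are CPM, read counts scaled to the size of each library, as normalised by the authors. The labels give replicate numbers 1 to 3 in each set but do not say whether these were separate transductions or cultures, so p-values measure only the spread between these libraries, which may be technical. The line is 1 tumour's cells and the labels do not name the vector's backbone, its promoter or any selection.

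MAX is the small dimerisation partner through which MYC proteins bind the E-box CACGTG, a DNA word found near the start of many growth genes. The same partner serves MNT, the MXD proteins and MGA, which repress at E-boxes, and MGA also brings MAX into a Polycomb complex, PRC1.6, that silences germline genes. MLX heads a parallel branch with MLXIP and MLXIPL that responds to glucose. Cells of the thyroid that give rise to such neuroendocrine tumours, the C cells, make calcitonin and package it in granin-rich secretory vesicles. MYC is best known for driving ribosome production, nucleotide synthesis and the cell cycle.

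Max itself, the restored gene (ENSMUSG00000059436.13; mm10 chromosome 12, 76937269 to 76962201, minus strand), stood at 86.3, 83.1 and 96.0 CPM with empty vector and at 251, 249.6 and 220.3 CPM with addback. The sets did not overlap (log2 change 1.43, SE 0.09, adjusted p = 5.75e-07; exact two-sided permutation p = 0.1, the smallest that 3 against 3 libraries allow). Reads over the whole gene do not separate a mutant transcript from the vector's. Libraries held 6738614 to 7238672 reads with empty vector and 7426964 to 7912573 with addback, and 3 reads in a library were worth 0.374 to 0.458 CPM, a limit that covers counting error only. Addback replicate 3 stood apart from its partners. Over genes, chi-square divided by its degrees of freedom was 1.76 to 1.90 between empty vector libraries and 1.83 between addback replicates 1 and 2, but 15.5 and 13.2 between these and replicate 3. The difference followed transcript length, taken here from each gene's ratio of CPM to the authors' RPKM, a level per kilobase. Such a length belongs to the gene's annotation and was not measured in these cells. Relative to replicates 1 and 2, replicate 3 was higher by a median log2 difference of 0.26 in the shortest of 4 length classes of genes (168 to 3140 bp). In the longest (7367 to 123179 bp) it was lower, at -0.29. The counts over all genes, and the list counts that moved, are also given without it.

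**Figure D1:**
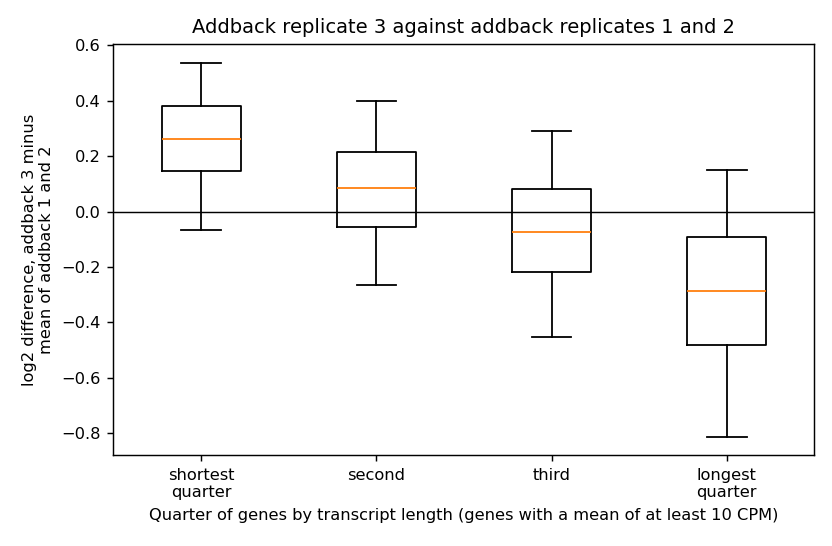
Box plot of the log2 difference of addback replicate 3 from the mean of addback replicates 1 and 2, for genes with a mean of at least 10 CPM, in 4 classes of transcript length (box, quartiles with the median; whiskers, percentiles 5 and 95). The medians step down from 0.26 in the shortest class through 0.08 and -0.08 to -0.29 in the longest.

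The 2 sets of cells also differed in ways that no single gene's regulation describes, and these values come before the results because each result rests on the same 6 libraries. All 4 listed Y-linked genes were read in the empty vector cells and nearly absent with addback. Ddx3y, an RNA helicase, stood at 177, 165 and 157 CPM with empty vector and had no read in any addback library, which is at least 437-fold lower against the value of 3 reads per library. Eif2s3y, a translation initiation subunit, had 120.3, 120.3 and 118 CPM against no read. Kdm5d and Uty, which act on histones, had 60.9 to 69.3 CPM against 0 to 0.257 CPM. The untransduced library of the same line held all 4 (43.3 to 125 CPM), and Xist, the X inactivation transcript, was at 0.386 to 5.47 CPM in the 6 libraries.

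Long stretches of chromosomes shifted together. In 135 windows of 20 Mb with at least 20 genes of 10 CPM or more, the window medians of the log2 difference between addback and empty vector ran from -0.44 to 0.46, and 55 of them lay beyond 0.2 in either direction. Chromosome 8 changed sign along its length: its first 5 windows had medians of -0.21 to -0.30 and its last 2 had medians of 0.31 and 0.42. Chromosome 12 began at -0.44, the last 3 windows of chromosome 2 lay at 0.40 to 0.46, and chromosome 11 stayed between -0.12 and 0.07. Set against the untransduced library of the same line, which the authors normalised in another table, the empty vector cells lay beyond 0.2 in 52 windows and the addback cells in 15. On chromosome 8 the empty vector cells departed from the untransduced line by 0.26 to 0.37 in the first 5 windows and by -0.34 and -0.47 in the last 2, whereas the addback cells stayed within -0.03 to 0.07. Distal chromosome 2 went the other way, with the addback cells at 0.27 to 0.42 and the empty vector cells at -0.21 to -0.0035. The X chromosome was higher in both sets than in the untransduced line. What Max did and what otherwise distinguishes the 2 transduced populations cannot be told apart.

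**Figure D2:**
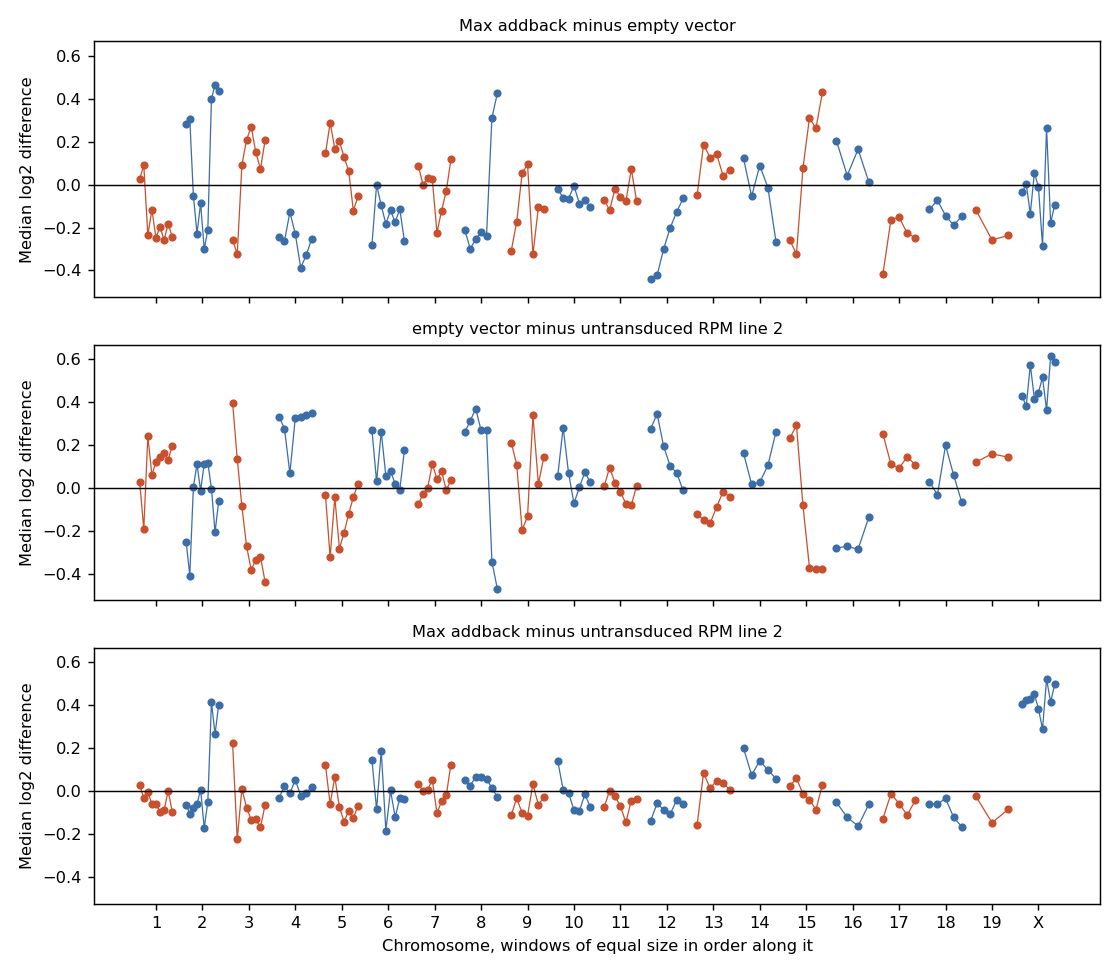
Median log2 difference of genes in windows of 20 Mb, in order along each chromosome, for addback minus empty vector (top), empty vector minus the untransduced line (middle) and addback minus the untransduced line (bottom); each point is 1 of 135 windows and colours alternate by chromosome. Blocks of chromosomes 3, 4, 8, 12 and 15 depart from 0 in the top and middle panels, and the end of chromosome 2 in the top and bottom panels.

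In the untransduced library Max stood at 103 CPM, near the empty vector and far below addback. Over all genes that library nevertheless resembled both sets, and the addback libraries more. Pearson's r of log2(CPM + 1) across 13078 genes, which are not independent replicates, was 0.932 to 0.933 with the empty vector libraries and 0.960 to 0.966 with the addback libraries. Its values are therefore printed beside several results as a single library, with no test. Of the genes called at least 2-fold higher with addback and present in both tables, 955 of 1351 (70.7%) had an untransduced level nearer to addback, as did 372 of 589 (63.2%) of those called at least 2-fold lower. Over all 13078 genes the share was 59.2%, so the lower genes were close to it.

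By limma at an adjusted p under 0.05, 3896 genes (27.7%) were higher and 3582 (25.5%) lower with addback, 53.2% of all genes together. Without addback replicate 3 the counts were 4575 (32.5%) and 4460 (31.7%), or 64.3% in all. Calls that held with and without it numbered 7342, none changed direction, 136 were lost and 1693 were gained. The rises were the larger changes: 1480 genes (10.5%) were called and at least 2-fold higher against 708 (5.04%) lower, and at 4-fold the counts were 578 (4.11%) and 172 (1.22%). Groups did not overlap for 31.7% of genes higher and 30.2% lower. Counts in gene lists are read against these shares, and the median log2 change over all genes was -0.0019.

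**Figure D3:**
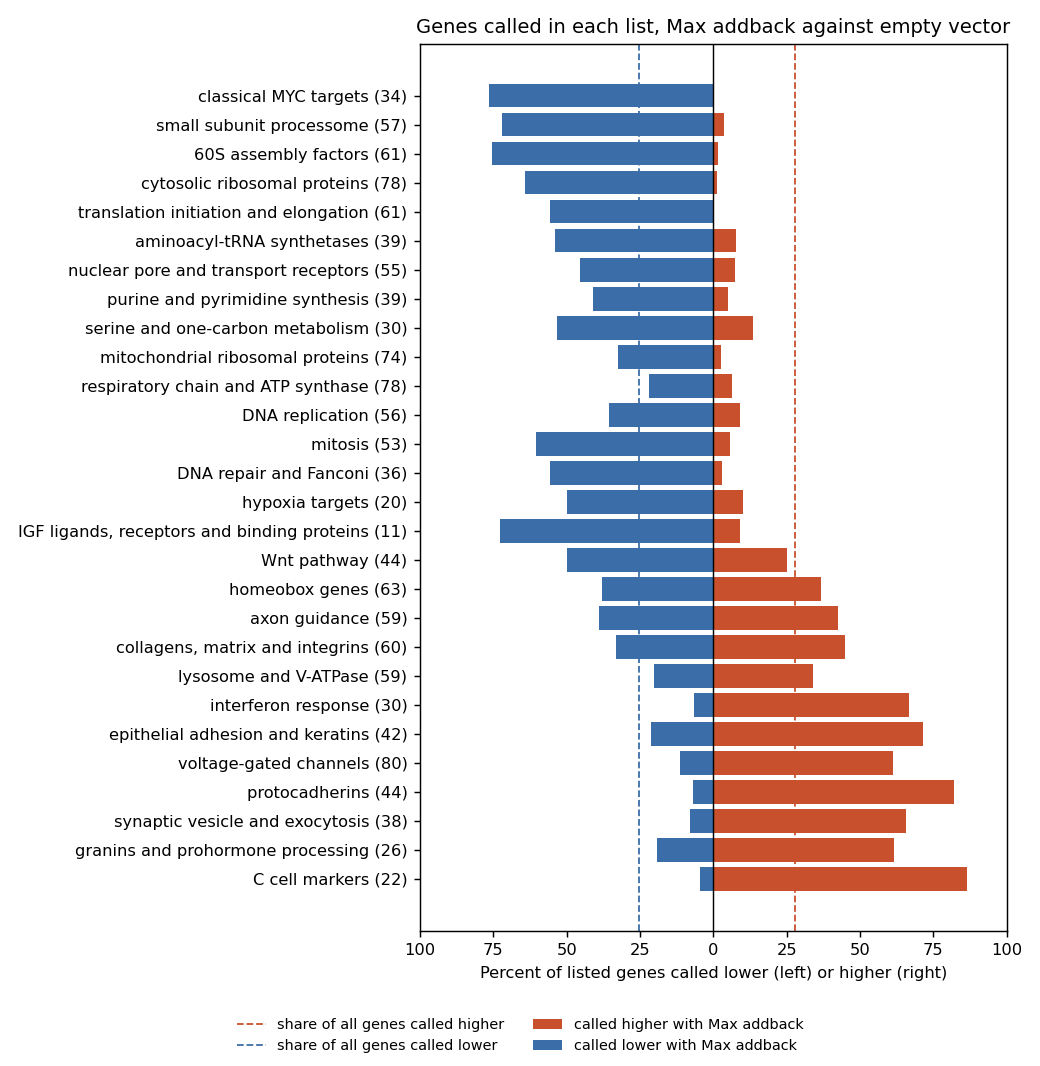
Percent of the genes of 28 lists called lower (left) or higher (right) with addback; numbers in brackets are the genes listed, and dashed lines mark the 25.5% of all genes called lower and the 27.7% called higher. Growth lists extend to the left and secretory, channel and epithelial lists to the right.

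In the network of MYC, MAX and MLX genes, 5 of 12 listed genes fell (6 without replicate 3) and 2 rose, Max included. Mlx, Mlxip and Mlxipl, which are among the 12, belong to the parallel MLX branch. Mnt, the broadest repressor partner, fell from 90.6, 78.7 and 97.6 CPM to 57.3, 56.3 and 57.4 CPM (log2 change -0.63, SE 0.09, adjusted p = 2.71e-04). Mga, the scaffold of PRC1.6, fell from 349, 344 and 349 CPM to 254, 246 and 143 CPM (-0.74, SE 0.18, adjusted p = 7.14e-03), with replicate 3 the lowest. Mxi1, an MXD repressor, fell by 0.56 on the log2 scale (adjusted p = 1.96e-03). Mlxip and Mlx fell by 0.38 and 0.35 on the log2 scale, Mlx with overlapping libraries, and both calls were lost when single libraries were left out. The adjusted p of Mlx was 0.109 to 0.135 without empty vector replicate 1 or 2 or addback replicate 1 or 2, and that of Mlxip 0.0584 to 0.0630 without any 1 empty vector library. Mlxipl, the glucose-sensing partner of MLX, rose from 21.7, 20.03 and 24.1 CPM to 50.2, 52.8 and 51.1 CPM (1.19, SE 0.10, adjusted p = 4.79e-06), where the untransduced line had 53.9 CPM. Of the MYC genes, Myc itself was not in the table. Mycn stood at 18.4, 20.03 and 21.5 CPM against 23.5, 20.1 and 22.5 CPM (log2 change 0.13, adjusted p = 0.340) and Mycl at 13.9, 13.5 and 9.62 CPM against 11.3, 12.95 and 11.6 CPM (-0.03, adjusted p = 0.890). In PRC1.6, 3 of 16 members rose and 5 fell (5 and 5 without addback replicate 3).

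The E-box word occurs in the promoters of several network and growth genes that were called, and of Tdrd1, a piRNA gene. The stretches below are 30 bases of RefSeq promoter (GRCm38.p6), 5′ to 3′ on the gene's strand. They are shown because they hold the sequence that MAX dimers recognise, with the E-box in capitals. Distances run from the first base of the E-box to the RefSeq start. For Max that start lies 47 bases from the gene start given above, and the E-box spans it.
Max, 3 bases before the start, chr12:76962234-76962263, minus strand: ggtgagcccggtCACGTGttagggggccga
Mnt, 123 bases before the start, chr11:74830789-74830818, plus strand: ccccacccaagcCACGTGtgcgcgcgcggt
Mlxipl, 98 bases before the start, chr5:135089780-135089809, plus strand: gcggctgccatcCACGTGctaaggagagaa
Ltv1, within the first 50 transcribed bases, chr10:13193092-13193121, minus strand: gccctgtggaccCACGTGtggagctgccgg
Tma16, within the first 50 transcribed bases, chr8:66486498-66486527, minus strand: tcccccggggccCACGTGtgttagggaaga
Polr3e, within the first 50 transcribed bases, chr7:120917771-120917800, plus strand: ccccgctcccccCACGTGtccggcggagtt
Pus7, within the first 50 transcribed bases, chr5:23783666-23783695, minus strand: ggcgcagcgccgCACGTGtgcgagcccggc
Ipo7, 137 bases before the start, chr7:110018166-110018195, plus strand: gtgggagccagcCACGTGggccgtgtccgc
Tdrd1, 11 bases before the start, chr19:56826186-56826215, plus strand: tggggctgcgcgCACGTGggagtaaactgc
Of these, Max and Mlxipl rose and the other genes fell. They are a choice, and other named genes with the word went both ways. Risers included Pld6, of the same list as Tdrd1, Rpa1, Atg3, Insig1 and Tgfb2. Fallers included Anln, Eef2k, Hsd17b7 and Derl3. Among growth genes whose promoters hold the word, Rrp7a of the processome (log2 change 0.41) and Aars, a tRNA synthetase (0.34), rose. Neither rise was called relative to its 20 Mb window, as given below. CACGTG, which reads the same on both strands, was found in 7.15% of the 32851 promoters of 300 bases in the RefSeq table and in 10.3% of the 10779 of them that belong to genes measured here. It was in 12 of 47 promoters of the small subunit processome (25.5%), 11 of 52 of 60S assembly factors (21.2%) and 7 of 29 of classical MYC targets (24.1%), but in 3 of 45 of mitosis genes (6.67%), 4 of 65 of mitochondrial ribosomal proteins (6.15%) and 1 of 24 of serine and one-carbon genes (4.17%), lists that also held more falls than rises. Among C cell markers it was in 1 of 19 (5.26%). Lists with both rises and falls also held it often. It was in 5 of 15 promoters of circadian clock genes (33.3%; 7 genes higher and 6 lower). It was in 4 of 19 of immediate early genes (21.1%, with 8 higher and 8 lower) and 6 of 29 of RNA polymerase I and III (20.7%). A match is a description of letters and not a bound site. Only 76.7% of the table's genes were matched to a promoter, under the 80% needed, so the split by call over all genes is void and is not given.

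Genes of ribosome production fell together with addback. Of 34 classical MYC targets 26 fell and none rose (30 lower and 1 higher without addback replicate 3), with a median log2 change of -0.65. Of 57 genes of the small subunit processome, which cuts and folds the small ribosomal RNA, 41 fell and 2 rose (46 and 2 without replicate 3; median -0.41). Of 61 assembly factors of the large (60S) subunit 46 fell and 1 rose (51 and 1; median -0.46). The mean log2(CPM + 1) over the classical targets was 6.45, 6.46 and 6.48 with empty vector and 5.83, 5.84 and 5.93 with addback. For these 3 lists the untransduced level lay near the empty vector: over the genes in both tables the means were 6.53 untransduced, 6.62 with empty vector and 6.04 with addback for the classical targets, 6.05, 6.09 and 5.66 for the processome and 6.10, 6.15 and 5.69 for the 60S factors. Most members of each list had an untransduced level nearer to the empty vector (24 of 33, 43 of 57 and 43 of 61), against 5332 of 13078 over all genes.

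Single genes showed the same split. Srm, which makes spermidine, stood at 173, 157 and 172 CPM with empty vector and 57.7, 53.8 and 66.1 CPM with addback, with 121 CPM in the untransduced line. Odc1, the rate-limiting enzyme of polyamine synthesis, fell from 242, 236 and 232 CPM to 111, 106 and 108 CPM (-1.12, SE 0.07, adjusted p = 5.76e-07). Rcl1, needed to cut the small subunit precursor, fell from 69.2, 73.6 and 76.6 CPM to 28.6, 27.9 and 32.9 CPM (-1.27, SE 0.09, adjusted p = 2.37e-06). Neither set overlapped the other for these 3 genes. Ltv1, an export and maturation factor of the small subunit, fell from 105, 106 and 92.4 CPM to 48.8, 42.2 and 51.0 CPM (-1.08, SE 0.10, adjusted p = 9.54e-06). The 60S factor Tma16 fell from 36.9, 38.2 and 31.5 CPM to 12.97, 15.4 and 12.6 CPM (-1.32, SE 0.12, adjusted p = 1.16e-05). Noc3l, which travels with early 60S particles, fell by 0.95 on the log2 scale. Ddx31 was the one 60S factor called higher, at 48.0, 53.3 and 41.5 CPM against 70.8, 70.1 and 73.8 CPM.

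The polymerases that transcribe ribosomal and transfer RNA genes were divided. Of 36 genes of RNA polymerase I and III, 9 rose and 13 fell (10 and 17 without replicate 3). Polr3e, a subunit of polymerase III, fell from 54.6, 49.4 and 46.3 CPM to 28.0, 29.6 and 30.1 CPM (-0.75, SE 0.09, adjusted p = 9.26e-05). Maf1, the repressor of polymerase III, rose from 59.7, 61.2 and 60.3 CPM to 107, 97.5 and 118 CPM (0.82, SE 0.09, adjusted p = 3.04e-05). It lies in a part of chromosome 15 whose window median was 0.31. Of 56 enzymes that modify transfer and ribosomal RNA 22 fell and 4 rose (30 and 4 without replicate 3), and the pseudouridine synthase Pus7 fell from 80.7, 88.8 and 80.8 CPM to 43.9, 41.6 and 40.7 CPM.

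Translation genes followed. Of 78 cytosolic ribosomal protein genes 50 fell and 1 rose, with a median of -0.55 (63 and 1 without replicate 3, median -0.67). Their transcripts are short (median 1805.5 bp), and replicate 3 stood above replicates 1 and 2 by a median log2 difference of 0.39. The part of transcript length in this fall was not tested. Rpl22 fell from 462, 499 and 483 CPM to 190.2, 209 and 267 CPM (-1.13, SE 0.12, adjusted p = 2.76e-05), and the addback levels lay near the 226 CPM of the untransduced line. Rpl15 was the one called higher (log2 change 0.31, adjusted p = 0.0141; 0.0577 without empty vector replicate 1 and 0.0517 without empty vector replicate 3). Of the 78 genes 42 had an untransduced level nearer to addback, a smaller share than the 7746 of 13078 (59.2%) over all genes. Their means of log2(CPM + 1) were 5.40 untransduced, 5.71 with empty vector and 5.21 with addback. Many ribosomal protein genes have processed copies in the genome, so how reads were split among copies is uncertain. Of 61 translation factors 34 fell and none rose, Eif2s3y among them (41 and 1 without replicate 3). An untransduced level nearer to addback was found for 34, again a smaller share than over all genes. Eif4e3, a variant cap-binding protein, fell from 40.4, 42.1 and 40.9 CPM to 5.47, 4.86 and 6.17 CPM (-2.70, SE 0.12, adjusted p = 6.39e-08). The untransduced line had 14.3 CPM of it, between the sets. Of 39 aminoacyl-tRNA synthetase genes 21 fell and 3 rose (26 and 3 without replicate 3), and of 31 chaperone genes 17 and 3 (21 and 3). Of 55 nuclear pore and transport receptor genes 25 fell and 4 rose, or 29 and 9 without replicate 3, which moved the median from -0.33 to -0.21. Ipo7, an importin that carries ribosomal proteins, fell from 415, 435 and 420.2 CPM to 243, 255 and 212 CPM (-0.84, SE 0.09, adjusted p = 2.40e-05).

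Most metabolic lists held more falls than rises, with single enzymes going against their list. The polyamine pathway was nearly even, with 5 of 19 genes higher and 6 lower (5 and 7 without replicate 3). Cholesterol synthesis held more rises than falls, 8 against 5 of 25 genes. Of 39 genes of purine and pyrimidine synthesis 16 fell and 2 rose (22 and 3 without replicate 3). Rrm2, the small subunit of ribonucleotide reductase, fell from 1143, 1120.0 and 1088 CPM to 501, 472 and 470.0 CPM (-1.21, SE 0.08, adjusted p = 1.16e-06). Of 30 genes of serine and one-carbon metabolism 16 fell and 4 rose (17 and 6 without replicate 3). Psat1, the aminotransferase of serine synthesis, fell from 640.3, 602 and 630.2 CPM to 209, 230.0 and 246 CPM (-1.45, SE 0.08, adjusted p = 4.28e-07); the untransduced line had 217 CPM. Phgdh, which opens that pathway, fell by 1.87 on the log2 scale, and Aldh1l1, a folate enzyme, rose from 0.153 to 0.429 CPM to 3.31 to 5.60 CPM.

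In glycolysis 13 of 30 genes fell and 6 rose (17 and 6 without replicate 3). Eno1, an enolase, fell from 329, 299 and 336 CPM to 112, 130.4 and 182 CPM, whereas the aldolase Aldoc rose from 3.00, 2.56 and 2.60 CPM to 34.5, 37.1 and 54.5 CPM (3.51, SE 0.17, adjusted p = 1.48e-07). Slc16a3, a lactate exporter, rose from 87.2, 87.8 and 86.1 CPM to 209.9, 281 and 357 CPM. Hypoxia targets fell in 10 of 20 cases and rose in 2 (13 and 2 without replicate 3), led by Egln3, a prolyl hydroxylase, from 729, 675 and 727 CPM to 132, 152 and 179.5 CPM (-2.21, SE 0.11, adjusted p = 1.51e-07). Of 22 fatty acid synthesis genes 11 fell and 6 rose (13 and 6 without replicate 3), and the elongase Elovl6 rose from 11.6, 10.1 and 8.09 CPM to 42.1, 35.4 and 33.0 CPM.

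Several short-gene lists turned on addback replicate 3. Of 78 nuclear genes of the respiratory chain and ATP synthase 17 fell and 5 rose, but 47 fell and 5 rose without replicate 3 (medians -0.14 and -0.24). With replicate 3 in, the 21.8% lower was under the 25.5% over all genes. Of 74 mitochondrial ribosomal protein genes 24 fell, or 43 without it, and of 46 proteasome genes 3 fell, or 15 without it, with 8 and 9 higher. The transcripts of these lists are short, and replicate 3 was high in short transcripts. A difference by length remained without replicate 3. The median log2 change was then -0.14 in the shortest length class and 0.0089 in the longest. The lists' medians without it were -0.24 for the respiratory chain, -0.26 for mitochondrial ribosomal proteins and -0.089 for the proteasome. The part of transcript length in these falls was not tested. Among genes encoded by the mitochondrion, 4 of 7 fell (6 without replicate 3), with mt-Nd1 at 5066, 6237 and 5658 CPM against 3031, 2953 and 2942 CPM (-0.92, SE 0.14, adjusted p = 3.08e-04). The untransduced level of all 7 was nearer to addback.

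Most cell cycle lists held more falls than rises. Of 53 mitosis genes 32 fell and 3 rose, with a median of -0.38 (42 and 3 without replicate 3). Cenpf, a kinetochore protein with a long transcript, fell from 788, 769 and 753 CPM to 396, 431 and 271 CPM (-1.10, SE 0.15, adjusted p = 1.89e-04). Kif11, the motor that separates spindle poles, fell from 654, 702 and 662 CPM to 373, 382 and 321 CPM (-0.91, SE 0.09, adjusted p = 1.94e-05). Foxm1, a transcription factor of mitotic genes, fell by 0.70 on the log2 scale (adjusted p = 4.60e-05). Of 56 DNA replication genes 20 fell and 5 rose, with a median of -0.11 (26 and 6 without replicate 3). Of 36 DNA repair genes 20 fell and 1 rose (22 and 3 without replicate 3), among the falls Fancb, a Fanconi anaemia core subunit, from 62.0, 65.8 and 65.0 CPM to 25.6, 27.6 and 22.9 CPM. Cdkn1a, the p21 inhibitor of cyclin-dependent kinases, also fell and stood at 194, 164 and 227 CPM with empty vector and 94.3, 95.9 and 127 CPM with addback (-0.88, SE 0.14, adjusted p = 5.23e-04). Another such inhibitor, Cdkn2b, was called higher (log2 change 0.80). The list of these inhibitors and D cyclins held 3 of 12 genes higher and 3 lower (3 and 7 without replicate 3).

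**Figure D4:**
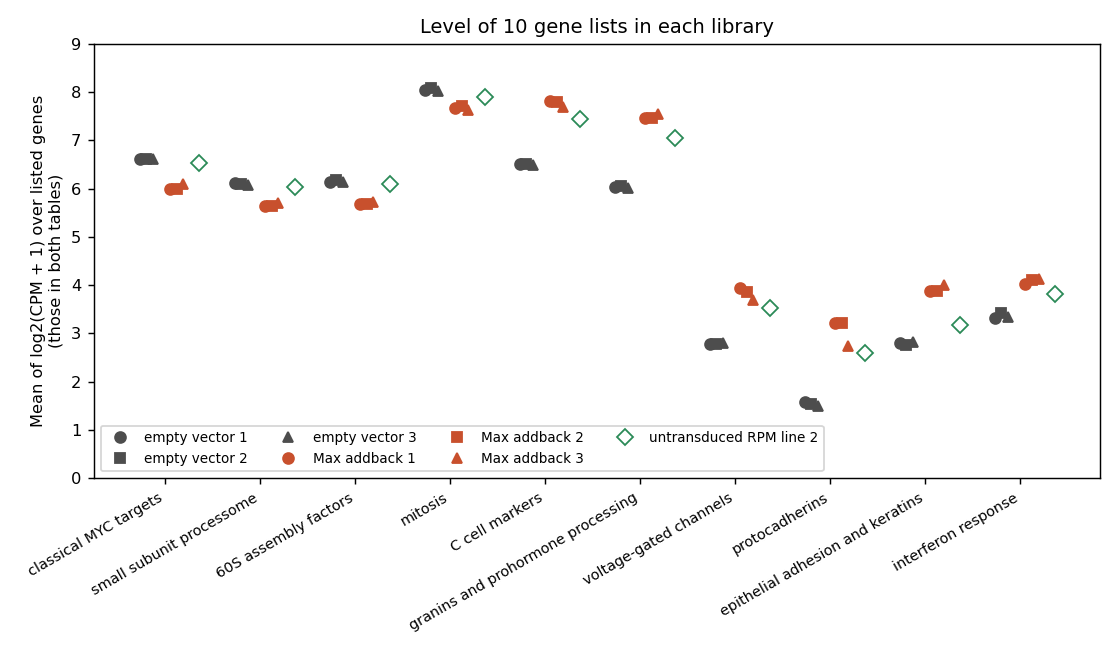
Mean log2(CPM + 1) over the members of 10 gene lists that are in both tables, in each of the 6 transduced libraries and in the untransduced library of the same line (open diamonds, normalised by the authors in another table). The diamonds sit with the empty vector for the 3 ribosome and MYC lists on the left, and between the sets or nearer to addback for the C cell and granin lists.

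Genes of the C cell and its secretory vesicles were mostly higher with addback. Of 22 C cell markers 19 rose and 1 fell (median 1.01; 20 and 2 without replicate 3), and of 26 genes of granins and prohormone processing 16 rose and 5 fell (median 1.48; 16 and 6 without replicate 3). Calca itself, the calcitonin gene, stood at 2693, 2932 and 2738 CPM with empty vector and 2418, 2386 and 2876 CPM with addback and was not called (log2 change -0.13, adjusted p = 0.411). Both sets thus expressed the calcitonin gene, though reads over the whole gene do not separate its transcripts. The C cell list averaged 6.52, 6.52 and 6.50 on the log2 scale with empty vector and 7.81, 7.79 and 7.70 with addback. Pcsk1, the convertase that cuts prohormones, went from 0.429, 0.568 and 0.611 CPM to 299.6, 295 and 216 CPM (7.45, SE 0.14, adjusted p = 6.57e-10). The untransduced line had 210.0 CPM of Pcsk1. Its RefSeq promoter holds the cyclic AMP response element TGACGTCA, in capitals, 78 bases before the start.
Pcsk1, chr13:75089768-75089797, plus strand: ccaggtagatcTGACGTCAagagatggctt
That word, which reads the same on both strands, was in 6 of the 21 matched promoters of the list (28.6%), in 1.79% of all promoters in the RefSeq table and in 3.39% of those of genes measured here. The RefSeq promoters of Th, of the same list, and Pax6 also hold it, and both genes fell.

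Other secretory genes moved with Pcsk1. Scg5, a chaperone of prohormone convertase, rose from 10.1, 12.9 and 10.7 CPM to 95.1, 92.9 and 107 CPM (3.02, SE 0.11, adjusted p = 2.26e-08), with 71.7 CPM untransduced. Calcb, a calcitonin family gene, rose from 2.00, 3.13 and 2.90 CPM to 33.7, 35.4 and 46.6 CPM. Glp1r, the receptor for GLP-1, rose from 22.7, 25.4 and 28.1 CPM to 323, 309 and 273 CPM (3.52, SE 0.10, adjusted p = 4.59e-09), with 191 CPM untransduced. Casr, the calcium sensor that controls calcitonin release, rose from 11.9, 12.4 and 11.6 CPM to 171, 152 and 64.9 CPM, where the third value is replicate 3. Gfra1, a GDNF co-receptor, was the C cell marker called lower, at 15.01, 12.6 and 14.7 CPM against 3.56, 2.62 and 1.03 CPM.

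Some genes typical of other neuroendocrine and neural types fell. Th, which makes catecholamine precursors, fell from 212, 198 and 205 CPM to 52.5, 65.0 and 64.3 CPM (-1.75, SE 0.09, adjusted p = 2.46e-07). Pou4f1, a sensory neuron factor, fell from 26.7, 30.1 and 25.5 CPM to 3.56, 2.49 and 3.08 CPM, and Pax6, an islet and eye factor, from 21.7, 19.3 and 19.4 CPM to 3.31, 2.24 and 2.44 CPM. Of 19 listed neuroendocrine transcription factors 10 rose and 6 fell (11 and 6 without replicate 3).

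Genes of excitability and exocytosis rose. Of 80 voltage-gated channel genes 49 rose and 9 fell (median 0.77; 51 and 10 without replicate 3), and of 38 genes of synaptic vesicles and exocytosis 25 rose and 3 fell (median 0.49; 28 and 3 without replicate 3). Kcnj3, a G protein-gated potassium channel, went from 1.00, 0.142 and 0 CPM to 104, 99.8 and 87.8 CPM (6.22, SE 0.23, adjusted p = 2.47e-08). Kcnq1, a slow potassium channel, went from 0.286, 0.995 and 0.611 CPM to 46.4, 44.8 and 56.0 CPM, and the untransduced line had 49.9 CPM. Kcnn3, a calcium-activated channel, fell from 12.7, 13.2 and 14.8 CPM to 1.27, 0.872 and 0.643 CPM (-2.93, SE 0.16, adjusted p = 3.42e-07). Rab3b, a vesicle GTPase, rose from 7.57, 5.40 and 8.24 CPM to 81.7, 87.5 and 107 CPM (3.54, SE 0.16, adjusted p = 6.98e-08). Cplx1, which clamps vesicle fusion, fell from 15.3, 11.4 and 12.98 CPM to 4.07, 5.23 and 5.78 CPM.

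Protocadherins, cell surface adhesion molecules of which each cell expresses a subset, rose in 36 of 44 cases and fell in 3 (median 1.67; 38 and 3 without replicate 3). Pcdhb17 rose from 0.429, 1.14 and 0.916 CPM to 19.2, 19.6 and 15.04 CPM, and Pcdhb10 from 0.858, 0.852 and 0.611 CPM to 11.8, 13.9 and 9.25 CPM. Replicate 3 was the lowest addback library for both. The clustered members are similar in sequence and share exons, so how reads were split among them is uncertain. The list's median was 0.86 with a pseudocount of 4 CPM and 2.36 with 0.25 CPM, since these levels are low. Axon guidance genes were split, with 25 of 59 higher and 23 lower (27 and 23 without replicate 3). Epha5, an ephrin receptor, rose from 0.572, 0.568 and 0.305 CPM to 39.8, 40.7 and 30.6 CPM, and Robo3, a SLIT receptor family member, fell from 47.4, 56.8 and 59.7 CPM to 9.53, 8.72 and 9.25 CPM (-2.45, SE 0.11, adjusted p = 9.99e-08).

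**Figure D5:**
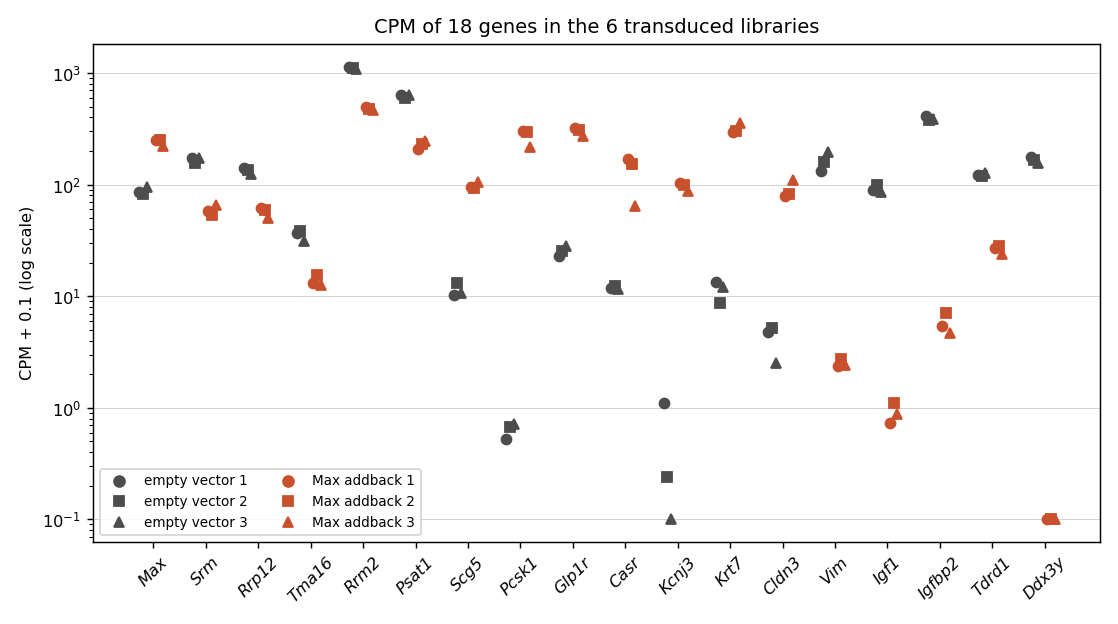
CPM plus 0.1, on a log axis, of 18 genes in the 3 empty vector (grey) and 3 Max addback libraries (orange); marker shapes give the replicate number. The sets do not overlap for any of the 18 genes, and Casr shows addback replicate 3 below its partners.

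Epithelial genes mostly rose, and mesenchymal genes were divided. Of 42 genes of epithelial adhesion and keratins 30 rose and 9 fell (median 1.41). The untransduced level was nearer to addback for 21 of them and nearer to the empty vector for 21. The means of log2(CPM + 1) were 3.18 untransduced, 2.80 with empty vector and 3.92 with addback. Krt7, a simple epithelial keratin, rose from 13.4, 8.52 and 12.1 CPM to 298, 302 and 356 CPM (4.71, SE 0.15, adjusted p = 8.62e-09), with 97.5 CPM untransduced. Cldn3, a tight junction claudin, rose from 4.72, 5.11 and 2.44 CPM to 78.3, 82.2 and 111 CPM. Tjp1, the tight junction scaffold ZO-1, went against them, from 124, 116 and 116 CPM to 2.54, 2.62 and 1.29 CPM (-5.28, SE 0.17, adjusted p = 1.10e-08). Vim, the mesenchymal intermediate filament, fell from 131, 158 and 196 CPM to 2.29, 2.62 and 2.31 CPM (-5.56, SE 0.14, adjusted p = 3.18e-09), and the untransduced line had 38.9 CPM. Fn1, fibronectin, had 37.7, 37.8 and 39.2 CPM against 0.254, 0.125 and 0.514 CPM. Over the 18 listed EMT factors and mesenchymal markers 6 rose and 6 fell (6 and 7 without replicate 3), and Cald1, an actin regulator, rose from 1.86, 1.42 and 1.68 CPM to 29.0, 29.6 and 30.3 CPM.

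Matrix genes moved both ways, with 27 of 60 collagens, matrix proteins and integrins higher and 20 lower (29 and 20 without replicate 3). Col11a1, a fibrillar collagen, rose from 2.14, 3.69 and 3.21 CPM to 119, 127 and 89.2 CPM, near its 145 CPM untransduced. Markers of other cell types were few in the table: 4 of 12 fibroblast markers, 4 of 12 endothelial markers and 1 of 12 macrophage and leukocyte markers were listed. Of the fibroblast markers 2 rose and 2 fell, of the endothelial 1 and 1, and the leukocyte marker Cd68 stood at 1.83 to 3.73 CPM in the 6 libraries. The summed level of the listed fibroblast markers was 33.7 to 44.3 CPM with empty vector and 17.0 to 20.9 CPM with addback, and that of the endothelial markers 9.01 to 10.4 CPM and 10.9 to 14.9 CPM. The defining markers Pdgfra, Col3a1, Cdh5 and Ptprc were not in the table, and the part of such cells in the results was not tested. Of 13 thyroid follicular markers 5 were listed, with 1 higher and 1 lower (1 and 2 without replicate 3), and thyroglobulin was not among them.

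Growth factor signalling shifted towards lower levels of IGF genes. Of 11 IGF ligands, receptors and binding proteins 8 fell and 1 rose (median -0.92, or -0.57 without replicate 3). Igfbp2, a binding protein, fell from 411, 381 and 386 CPM to 5.34, 6.97 and 4.63 CPM (-5.90, SE 0.12, adjusted p = 1.03e-09). The ligand Igf1 fell from 90.0, 99.7 and 86.0 CPM to 0.636, 0.996 and 0.771 CPM. In the untransduced line Igfbp2 was at 4.61 CPM and Igf1 at 1.99 CPM, both close to the addback cells. Of 30 genes of receptor tyrosine kinases and MAPK feedback 11 rose and 16 fell. Ntrk2, the BDNF receptor, fell from 31.2, 37.8 and 37.4 CPM to 4.45, 4.11 and 2.83 CPM, and Erbb2 from 17.6, 19.2 and 18.02 CPM to 2.29, 3.24 and 1.799 CPM.

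Of 44 Wnt pathway genes 22 fell and 11 rose (median -0.35; 23 and 12 without replicate 3). Nkd2, an inhibitor that acts on Dishevelled, fell from 150.1, 146 and 117 CPM to 8.64, 7.22 and 5.53 CPM (-4.10, SE 0.15, adjusted p = 2.40e-08). Tcf7l1, a repressor of Wnt targets, fell from 22.6, 24.3 and 22.3 CPM to 2.92, 3.49 and 1.799 CPM, and the receptor Fzd8 rose from 2.14, 2.27 and 2.44 CPM to 20.6, 20.3 and 21.2 CPM. Notch genes were divided, with 8 of 26 higher and 10 lower (9 and 10 without replicate 3). Dlk1, a non-canonical Notch ligand, fell from 1176, 1280.1 and 1298 CPM to 208, 214 and 221 CPM (-2.54, SE 0.08, adjusted p = 8.69e-09), while the inhibitory ligand Dll3, a neuroendocrine tumour marker, rose from 2.00, 1.28 and 2.75 CPM to 14.2, 12.5 and 17.9 CPM. In the TGF-beta and BMP list 13 of 44 rose and 17 fell (14 and 18 without replicate 3), and Bmpr1b, a BMP receptor, rose from 0.858, 1.42 and 1.37 CPM to 50.6, 56.8 and 40.4 CPM (4.50, SE 0.17, adjusted p = 2.40e-08).

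Interferon response genes rose in 20 of 30 cases and fell in 2 (median 0.67; 22 and 2 without replicate 3). Gbp7, a guanylate-binding protein, rose from 0.715, 0.995 and 0.763 CPM to 17.7, 20.1 and 14.9 CPM, and the untransduced line had 18.2 CPM. Bst2, tetherin, went against the list, from 13.4, 14.5 and 15.6 CPM to 6.61, 5.73 and 8.35 CPM. Of 20 genes of MHC class I presentation 9 rose and 4 fell (9 and 7 without replicate 3). Psmb8, an immunoproteasome subunit, rose from 8.43, 8.38 and 6.41 CPM to 17.5, 18.3 and 25.4 CPM, and B2m, the light chain of MHC class I, fell from 114, 125 and 112 CPM to 30.8, 34.1 and 44.3 CPM (-1.67, SE 0.13, adjusted p = 2.69e-06). Nfkb1, an NF-kB subunit, had 0.143, 0.284 and 0.916 CPM with empty vector and 29.6, 29.0 and 28.3 CPM with addback.

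Germline genes, which PRC1.6 is known to silence, were divided. Only 30 of 55 meiotic and germline genes were in the table. Of these 30 genes 8 fell and 5 rose, or 8 and 9 without replicate 3, and the median log2 change was 0.11. The shares were 26.7% lower and 16.7% higher, against 25.5% and 27.7% over all genes. Of 25 piRNA and Tudor genes 9 were in the table, and 3 of the 9 fell and 2 rose (3 and 1 without replicate 3). Tdrd1, a Tudor scaffold of the piRNA pathway, fell from 121, 121 and 126 CPM to 26.7, 28.3 and 24.0 CPM (-2.18, SE 0.09, adjusted p = 3.41e-08), and the untransduced line had 78.0 CPM. Piwil4, a piRNA-binding Argonaute, fell from 94.9, 94.9 and 101.1 CPM to 0.508, 1.12 and 0.771 CPM, with 4.49 CPM untransduced. Syce2, of the synaptonemal complex, fell from 100.3, 96.5 and 107 CPM to 18.1, 20.3 and 28.7 CPM (-2.16, SE 0.15, adjusted p = 1.43e-06). Zcwpw1, a reader of meiotic hotspots, rose from 10.9, 9.95 and 9.31 CPM to 31.5, 29.5 and 29.0 CPM.

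Imprinted genes, expressed from 1 parental copy, rose in 13 of 29 cases and fell in 9 (15 and 11 without replicate 3). Nnat, neuronatin, rose from 7.86, 8.24 and 6.41 CPM to 515, 509.7 and 632 CPM (6.02, SE 0.11, adjusted p = 6.57e-10). The long noncoding RNA Meg3 rose from 4.86, 9.38 and 9.77 CPM to 447, 403 and 451 CPM while Dlk1, from the same imprinted cluster on chromosome 12, fell. The untransduced line had 288 CPM of Nnat and 309.9 CPM of Meg3. Homeobox genes were divided, with 23 of 63 higher and 24 lower (22 and 24 without replicate 3). Hoxc5 rose from 2.14, 3.84 and 3.36 CPM to 52.6, 57.5 and 64.3 CPM, and the sets did not overlap.

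The largest single changes lay mostly outside the growth lists. Ccn3, a matricellular protein, went from 0.429, 0 and 0.153 CPM to 178, 176 and 161 CPM, with 87.8 CPM untransduced. Atp2a3, the SERCA3 calcium pump, rose from 9.72, 10.7 and 9.01 CPM to 769.9, 791 and 746 CPM (6.16, SE 0.08, adjusted p = 1.17e-10), and the untransduced line had 779 CPM. Eya4, a transcriptional coactivator and phosphatase, fell from 279, 264 and 257 CPM to 5.72, 6.35 and 4.88 CPM, with 103 CPM untransduced. Cd109, a GPI-anchored surface protein, fell from 185, 167 and 182 CPM to 2.16, 1.74 and 1.03 CPM (-6.10, SE 0.16, adjusted p = 3.00e-09). For none of these did the sets overlap.

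Because neighbouring genes shifted together, the log2 change of each gene was also taken relative to the median of its 20 Mb window, an alternative chosen after seeing the data. It gave 3850 genes higher and 2791 lower. The lists described first held: 26 of 34 classical MYC targets, 36 of 57 processome genes, 42 of 61 60S factors and 29 of 53 mitosis genes were lower, and 19 of 22 C cell markers, 48 of 80 channel genes and 30 of 42 epithelial genes were higher. The respiratory chain (8 of 78 lower) and mitochondrial ribosomal proteins (14 of 74 lower) held fewer calls than before. In the network, 4 of 12 genes were higher and 5 lower relative to their windows (median -0.29), against 2 and 5 before (median -0.17). The members called changed. Mga and Mlxip no longer passed the test relative to their windows (log2 change -0.44, adjusted p = 0.0766, and -0.26, adjusted p = 0.0929). The rises of Rrp7a (0.15, adjusted p = 0.266), Aars (0.028, adjusted p = 0.811) and Rpl15 (0.19, adjusted p = 0.110) did not pass either.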

How the data were processed

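Reads of 6 total RNA libraries were handled with bcl2fastq 1.8.4, TopHat2 2.1.0, HTSeq 0.6.1 and edgeR on mm10, per the submitters' processing notes. The authors deposited RPKM values scaled with TMM factors, per the file headers. The authors likewise made the CPM signal from gene counts divided by TMM-scaled library sizes, per the file headers. Dividing by the value of 1 read gave whole reads for every CPM value at a tolerance of 0.01 read. From the deposited CPM, log2(CPM + 1) was fitted with limma 3.58.1 (R 4.3.3, trend on mean level, no filter beyond the authors' list), 3 against 3 libraries, two-sided, with Benjamini-Hochberg adjustment over 14056 genes. Fold changes of low genes are understated on that scale. RPKM was not used for any test. The design had foreseen normalised values. The deposited fold changes, p-values and calls were not used.

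Recovered reads were also fitted with edgeR 4.0.16 and DESeq2 1.42.0. Other alternatives were other pseudocounts, scalings, filters, a replicate block and leaving out each library. The change relative to a 20 Mb window was chosen after seeing the data. Scripts were tested on simulated data. The comparison's members and the gene lists were chosen with earlier results of these data known, and lists are described by counts and medians with no test. Named genes were the network, the 3 largest called members of each list with the largest in its lesser direction, and the 15 largest changes each way. Calca, outside that rule, was chosen after its values were seen. Some items are not reported here. Gene positions are from GENCODE vM21, in which 14050 identifiers were found, and promoter sequences from RefSeq, GRCm38.p6. The labels do not say whether counting used strand, so genes that overlap on opposite strands may share reads.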

Additional observations from a re-analysis of the deposited data

How the results depend on the processing

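The counts of 3896 genes higher and 3582 lower stayed within 1.5 times under the pseudocounts, scalings, filter, edgeR and DESeq2 fits and the change relative to windows. Testing against a 1.2-fold change gave 2438 and 1800, and requiring at least 2-fold gave 1480 and 708. Leaving out 1 library gave 3320 to 4575 higher and 2846 to 4460 lower. Scaling by library size shifted the split to 4507 and 2919. DESeq2 gave 3537 and 3168. The replicate block gave 3848 and 3590. Replicate numbers did not pair the libraries (same-number correlations of deviations 0.075, 0.033 and 0.098), so the block is only an alternative.

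Median changes near 0 changed sign in several lists, of which some are given here. E2F family and pocket protein genes went from -0.012 to 0.068 with library-size scaling. Without addback replicate 3 the proteasome went from 0.0093 to -0.089 and PRC1.6 from 0.019 to -0.027. Homeobox genes went from -0.04 to 0.11 with a mean of at least 1 CPM, 0.037 with library-size scaling, and between -0.074 and 0.049 when 1 library was left out, positive without empty vector replicate 1 (0.047), addback replicate 2 (0.0036) or addback replicate 3 (0.049). Thyroid follicular markers went from 0.12 to -0.022 without empty vector replicate 1 and -0.054 without addback replicate 2. With library-size scaling piRNA genes had 0.0095 and Notch genes 0.022. Relative to windows, the unfolded protein response had 0.020, TGF-beta genes 0.019 and Notch genes 0.00027, and Wdr5 (-0.040), Pfdn5 (-0.10), Fanca (-0.058) and Dnmt3b (-0.053) reversed. The cause was not tested. Genes near 3 reads in a library are not resolved.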

Other observations

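Several further lists held more falls than rises. YAP/TAZ and TEAD genes fell in 10 of 20 cases and rose in 4 (10 and 5 without addback replicate 3), ATF4 stress response genes in 12 and 6 of 29 (18 and 6), mitochondrial import genes in 13 and 5 of 31 (17 and 5), TCA cycle genes in 10 and 2 of 24 (14 and 2) and E2F family and pocket protein genes in 8 and 1 of 19 (8 and 1). The median log2 change of the E2F list was nevertheless near 0, at -0.012. Targets of p53, mutant in these cells, fell in 8 of 22 cases and rose in 2 (11 and 3). Of 236 solute carrier genes 76 were higher and 60 lower (84 and 71 without addback replicate 3), and of 337 zinc finger genes 63 and 62 (85 and 72). Lysosome and V-ATPase genes rose in 20 of 59 cases and fell in 12 (19 and 19 without addback replicate 3). Replication-dependent histone genes rose in 10 of 30 cases and fell in 2 (11 and 2), circadian clock genes in 7 and 6 of 18 (8 and 7), and cholesterol synthesis genes in 8 and 5 of 25 (9 and 7).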
